A study of Mus musculus with 6 samples.

Results

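Proteasome subunit genes were followed in sorted CD4+CD8+ double-positive thymocytes, thymus cells that are rearranging and testing their alpha-beta T cell receptor. A probe set was taken if the platform annotation gave it 1 gene symbol and that symbol began with Psma, Psmb, Psmc, Psmd, Psme or Psmf, leaving out the inducible subunits Psmb8, Psmb9 and Psmb10. The rule gave 39 genes of the 8511 with a single symbol, read by 96 probe sets. They comprised 14 genes of the core particle, 17 of the regulatory particle, 3 assembly chaperones of the regulatory particle and 3 activators. The symbol also caught Psmc3ip, a cofactor of meiotic recombination, and Psme3ip1, a protein that binds the activator subunit Psme3. Neither is a subunit, and both were kept apart. Psma8, Psmb11 and Psmf1 had no probe set with their symbol alone among those used. Psme2 was left out because its 3 probe sets also carry the symbol of the related gene Psme2b.

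The series has 6 arrays, 3 per genotype. The transgenic mice carried a Sox13 transgene on a C57BL/6 background, and the controls were wild-type littermates, all female and 6 weeks old per the labels. Affymetrix Mu11K A and Mu11K B arrays were hybridised in experiment 1, where the pair counts as 1 sample per genotype, and U74A arrays in experiment 2. Each sorted sample pooled thymocytes of at least 2 mice. The promoter of the transgene is not given in the sources used here. Each experiment thus held 1 transgenic and 1 wild-type sample, and array type and experiment cannot be told apart.

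The proteasome degrades proteins that carry ubiquitin chains. Its barrel-shaped core has outer rings of alpha subunits, encoded by Psma genes, and inner rings of beta subunits, encoded by Psmb genes, some of which cut peptide bonds. The regulatory particle caps the core, with a ring of ATPases (Psmc) that unfolds substrates and non-ATPase subunits (Psmd) that bind ubiquitin and remove it. In lymphoid cells, inducible catalytic subunits can replace the constitutive ones and alter the peptides available to MHC class I.

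Genes of the proteasome are known targets of Nfe2l1, a transcription factor that binds antioxidant response elements, so the stretch before the transcription start of 5 members is shown with matches to the letters TGACNNNGC, a core of that element. Matches to AACAAT, a core bound by Sox proteins, were searched as well, because the transgene encodes one. Each line below gives the last 120 bases before the RefSeq start (GRCm38.p6), 5′ to 3′ on the gene's strand, with the match in capitals. Psmb6, Psmb5 and Psmd9 carry the first motif close to the start. Psmd8 was the member with the second, on the opposite strand, and Psmd1, the member with the lowest ratio, has neither.
Psmb6, chr11:70525237-70525356, plus strand: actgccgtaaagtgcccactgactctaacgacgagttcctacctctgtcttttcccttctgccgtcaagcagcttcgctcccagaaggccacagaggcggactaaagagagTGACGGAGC
Psmb5, chr14:54617996-54618115, minus strand: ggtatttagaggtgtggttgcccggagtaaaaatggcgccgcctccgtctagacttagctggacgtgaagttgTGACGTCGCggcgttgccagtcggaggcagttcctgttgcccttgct
Psmd9, chr5:123228070-123228189, plus strand: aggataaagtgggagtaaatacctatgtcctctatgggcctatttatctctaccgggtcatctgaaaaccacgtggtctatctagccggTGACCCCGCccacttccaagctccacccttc
Psmd8, chr7:29180674-29180793, minus strand: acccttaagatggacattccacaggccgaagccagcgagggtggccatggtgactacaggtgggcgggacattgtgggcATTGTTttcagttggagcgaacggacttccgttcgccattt
Psmd1, chr1:86064499-86064618, plus strand: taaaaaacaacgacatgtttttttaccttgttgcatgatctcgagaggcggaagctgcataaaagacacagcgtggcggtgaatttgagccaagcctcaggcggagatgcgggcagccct

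The RefSeq table held promoters of 33 of the 39 genes, 36 windows in all, and the search covered the 250 bases before each start on both strands. TGACNNNGC occurred in 5 of these genes, the other two being Psmc6 and Psmd12, and in 13.9% of their windows, against 10.2% of all 32851 windows. AACAAT occurred in 1 gene, 2.78% of the windows, against 9.42% of all. The CCAAT box was found in 38.9% of the members' windows and 33.8% of all, and the GC box GGGCGG in 55.6% and 32.7%. Matches of different motifs may overlap, and a match describes the sequence, not binding.

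Values are intensities scaled so that the trimmed mean of each array is 500. A floor of 100 was applied before log2 was taken, so where 1 genotype is under the floor the fold gives only the least difference. Of the 96 member probe sets, 86 lay above the floor in both genotypes, 2 in 1 genotype and 8 in neither. At least 1 probe set passed for 33 of the 35 members on the Mu11K arrays and for 37 of the 39 on the U74A array, and 31 members could be tested over both experiments. Brightness depends on the probes, so levels are compared only within a probe set. Sox13 itself read 5951 against a wild-type value below the floor in experiment 1. In experiment 2 it read 3832 against 599.6, although the labels describe the wild-type cells as lacking endogenous Sox13.

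**Figure D1:**
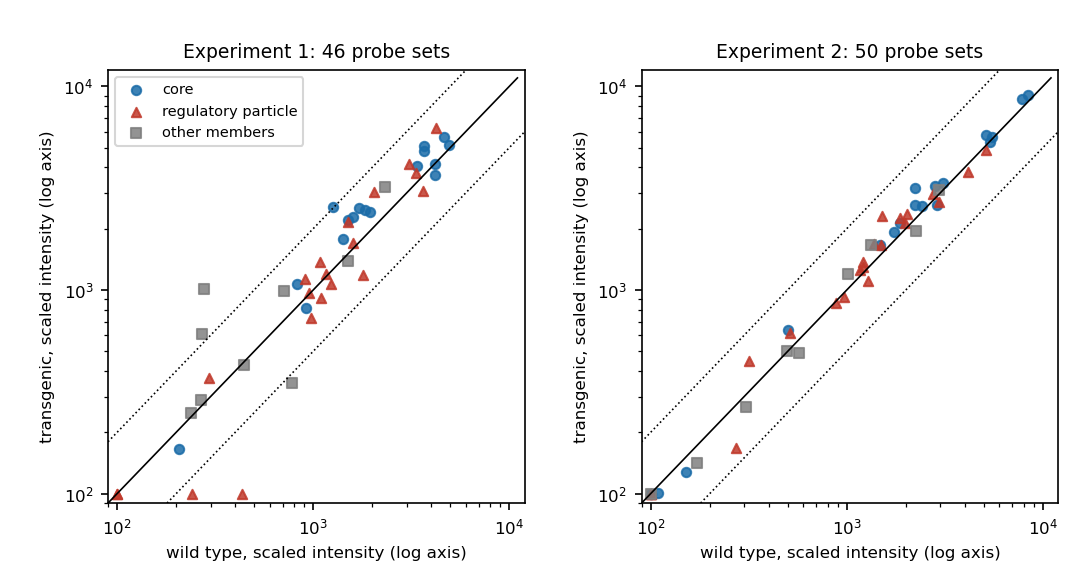
Scaled intensity of every member probe set in the wild-type sample (x axis, log scale) and the transgenic sample (y axis, log scale), in experiment 1 (46 probe sets) and experiment 2 (50 probe sets). The solid line marks equal values, dotted lines mark 2-fold differences, and values under 100 are drawn at 100; points of experiment 2 all lie within the dotted lines, whereas 6 points of experiment 1 lie outside them.

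Most core genes read slightly higher in the transgenic samples, and none passed the test. In experiment 1, 10 of 12 core genes were higher, with a median log2 ratio of 0.37 (1.29-fold), where 45.6% of all 3927 genes were higher and the median of all genes was -0.07. In experiment 2, 10 of 14 were higher with a median of 0.13 (1.10-fold), where 45.4% of all 5377 genes were higher and the median of all genes was -0.03. Over both experiments 7 of 12 core genes were higher in each and 0 were lower in each, against 23.9% and 30.4% of the 3237 genes tested. The count depends on probe sets close to the floor. With the brightest probe set 9 of 12 were higher in each, and also at a floor of 200, against 24.0% and 25.7% of all genes. Under loess and quantile normalization it stayed at 7 of 12. In limma fitted to the ratios of both experiments, 0 of 12 passed in either direction, with adjusted p-values from 0.882 to 0.991, and 0.154% of all genes were called higher and 0% lower.

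The mean log2 ratio of the 2 experiments lay above 0 for all 12 tested core genes, between 0.03 and 0.39. Under quantile normalization this held for 10 of 12 and under loess for 11, with Psma2 below 0 under both and Psma6 under quantile normalization. On Mu11K A alone it held for 10 of 11, with Psmb1 below 0. The mean of the experiments' core medians was 0.25 ± 0.17 (SD, n = 2 experiments). All 12 of the core genes' 95% intervals included 0, with a typical half-width of 1.66-fold, so differences of the size seen here were not detectable in this design.

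The alpha subunits form the outer rings and the gate through which substrates enter the core. Psma7 read 2540 in the transgenic sample and 1716 in the wild type in experiment 1, and 2579 against 2424 in experiment 2, with log2 ratios of 0.57 and 0.09. Psma4 had 2 probe sets in experiment 1, of which one read 2550 against 1267 and the other 816.8 against 917.3, and 1 in experiment 2 with 3232 against 2807. Its log2 ratios were therefore 1.01 and -0.17 on the first array type, an average of 0.42, and 0.20 on the second. The disagreement between the Psma4 probe sets of experiment 1 was larger than the ratio of the gene in either experiment.

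Psma3 was higher on every probe set, at 2415 against 1939 and 1066 against 832.0 in experiment 1 and 5757 against 5158 in experiment 2. Psma6 read 5147 against 4919 and 9105 against 8414, differences of 1.05-fold and 1.08-fold. Psma2 read 3680 against 4163 and 4154 against 4181 on its 2 probe sets of experiment 1, and 8677 against 7851 in experiment 2. Psma2 and Psma5 had opposite signs in the experiments, with log2 ratios of -0.09 and 0.14 for Psma2 and of 0.33 and -0.15 for Psma5. Psma1, measured in experiment 2, read 639.7 against 499.2 (log2 ratio 0.36), the largest among the 7 alpha genes there.

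The beta subunits include the catalytic ones, encoded by Psmb5, Psmb6 and Psmb7. Psmb6, whose promoter carries the first motif next to the start, read 4043 in the transgenic sample and 3390 in the wild type in experiment 1, and 3186 against 2223 in experiment 2. The 2 log2 ratios, 0.25 and 0.52, averaged 0.39 ± 0.34 (SE from limma; adjusted p = 0.882). Psmb7 read 2205 against 1506 and 2615 against 2229, with log2 ratios of 0.55 and 0.23, a mean of 0.39 ± 0.34 and the same adjusted p of 0.882 in limma. Both catalytic genes were higher in each experiment. Psmb5, which also carries the first motif, was read in experiment 2 by 2 probe sets, at 1938 against 1736 and, close to the floor, at 128.2 against 151.1. Averaged over them its log2 ratio was -0.04. The other genes with this motif were Psmd9 (log2 ratios 1.17 and -0.22), Psmc6 (-0.07 in experiment 2) and Psmd12 (-0.84, an upper bound, and -0.22). The genes with the motif thus did not share a direction, and a link between motif and ratio was not tested.

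Among the structural beta subunits, Psmb2 read 2288 against 1592 and 3362 against 3094, with log2 ratios of 0.52 and 0.12. Psmb3 and Psmb4 were higher in experiment 1 and nearly equal in experiment 2. Psmb3 read 2461 against 1844 and 4789 against 3680 on the 2 probe sets of experiment 1, and 5314 against 5364 in experiment 2. Psmb4 read 5091 against 3669 in experiment 1. In experiment 2 its bright probe set read 5620 against 5509 and a dim one, close to the floor, 101.0 against 108.6. Averaged over these the log2 ratio of Psmb4 in experiment 2 was -0.04. Psmb1 had a bright probe set of 5653 against 4665 and a dim one of 165.4 against 206.0 in experiment 1, which gave opposite signs. In experiment 2 Psmb1 read 1670 against 1479 and 2129 against 1868.

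**Figure D2:**
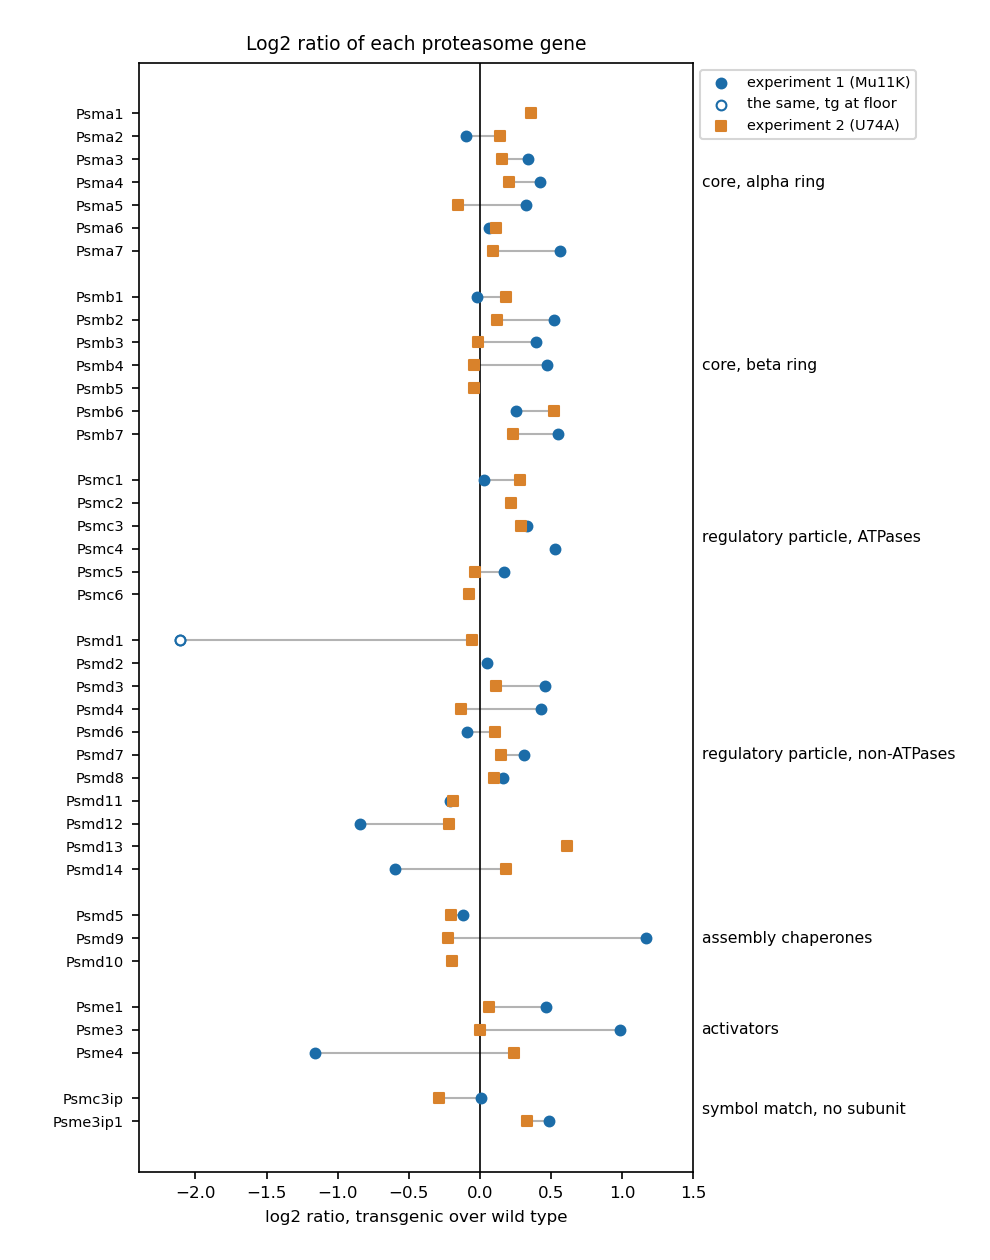
Log2 ratio, transgenic to wild type, on the x axis for each of the 39 genes (y axis, by role), as circles for experiment 1 and squares for experiment 2, joined where both exist. The open circle is Psmd1, whose transgenic sample was at the floor, so that its ratio of -2.11 is an upper bound, as is that of Psmd12, which had 1 of 2 probe sets there; the core genes lie between -0.15 and 0.57.

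The regulatory particle covered a wide range in experiment 1. Of its 14 genes measured there 9 were higher, with a median log2 ratio of 0.11 and a range from -2.11 to 0.53, and in experiment 2 it was 9 of 15, with a median of 0.11 and a range from -0.22 to 0.62. Of all genes, 45.6% were higher in experiment 1 and 45.4% in experiment 2. Over both experiments 5 of 12 regulatory genes were higher in each and 3 lower in each, against 23.9% and 30.4% of all genes. None of the 12 passed (0 higher and 0 lower in limma, smallest adjusted p = 0.769). In the same fit 0.154% of all genes were called higher and 0% lower. The difference between the medians of core and regulatory particle was seen in experiment 1 and was small in experiment 2, and with 2 experiments no exact permutation test of it can reach the threshold.

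Among the ATPases, 4 of 4 were higher in experiment 1 and 3 of 5 in experiment 2, at medians of 0.25 and 0.22. Of all genes, 45.6% and 45.4% were higher there. Psmc3 read 371.2 in the transgenic sample and 295.3 in the wild type in experiment 1, and was higher on its 3 probe sets of experiment 2, at 448.3 against 318.7, 1254 against 1175 and 2246 against 1859. Its mean log2 ratio was 0.31 ± 0.34 (limma SE; adjusted p = 0.892). Psmc1 read 968.2 against 948.2 and 1674 against 1375. Psmc5 read 3759 against 3335 in experiment 1 and 861.8 against 883.1 in experiment 2, with log2 ratios of 0.17 and -0.035.

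The other 3 ATPase genes were measured above the floor in a single experiment. Psmc4 read 2169 against 1500 in experiment 1 and was below the floor in both genotypes of experiment 2. Psmc2 and Psmc6 were below the floor in experiment 1, and in experiment 2 Psmc2 read 2354 against 2026 and Psmc6 4874 against 5132.

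The non-ATPase subunits split by gene. Psmd1, a scaffold at the base of the regulatory particle, was the most divergent: it read 431.5 in the wild type and below the floor in the transgenic sample of experiment 1, at least 4.32-fold lower, and 929.7 against 964.1 in experiment 2. Its mean log2 ratio was -1.08 ± 0.44 (limma SE; unadjusted p = 0.0291, adjusted p = 0.769), the smallest p of the 31 members tested, and it rests on experiment 1. The value depends on the floor, with a mean of -1.46 at a floor of 50 and -0.58 at a floor of 200. In limma the unadjusted p was 0.109 at a floor of 200, 0.383 without the filter and 0.411 without pairing. It was 0.0144 after quantile normalization, 0.0178 under median scaling, 0.0270 after loess and 0.0261 with Mu11K A alone, also in limma. At a floor of 50 it was 0.0353 and with the brightest probe set 0.0486. The lowest adjusted p among these limma fits was 0.455. In experiment 2 the genotypes differed by 1.04-fold. Of the members, 1 had an unadjusted p under 0.05, against 208 of all 3237 genes.

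Psmd12 and Psmd11, subunits of the lid that covers the base, were lower in both experiments. Psmd12 read 729.1 in the transgenic sample against 978.2 on one probe set of experiment 1, below the floor against 239.9 on the other, and 1105 against 1283 in experiment 2. Its mean log2 ratio was -0.53 ± 0.35 (limma SE; adjusted p = 0.858). Psmd11 read 1067 against 1236 in experiment 1, and its 3 probe sets of experiment 2 disagreed, at 167.4 against 274.0, 618.4 against 511.8 and 2702 against 2967. Psmd14, the subunit that removes ubiquitin chains as substrates enter, read 1182 against 1786 and 1373 against 1206, opposite in sign.

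Psmd3, Psmd7 and Psmd13 also belong to the lid, and their values lay above the wild type. Psmd3 was higher on every probe set, at 1374 against 1078 and 6251 against 4228 in experiment 1 and 2969 against 2741 in experiment 2 (mean log2 ratio 0.29 ± 0.34, limma SE; adjusted p = 0.902). Psmd7, the partner of Psmd14, read 1128 against 911.0 and 1663 against 1497. Psmd13 was measured in experiment 2 alone, where it read 2321 against 1514, a log2 ratio of 0.62 and the highest of all 37 members there. None of the tested lid genes passed.

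Psmd8, whose promoter window holds the Sox core letters, read 3046 against 2042 on Mu11K A, 3066 against 3645 on Mu11K B and 1297 against 1209 on U74A. Its sign thus differed between probe sets, and it turned from a mean of 0.13 to -0.074 with the brightest probe set. Psmd4, a ubiquitin receptor, read 4164 against 3084 and 3804 against 4165, opposite in sign. Psmd6 had log2 ratios of -0.09 and 0.11. Psmd2, the other large scaffold of the base, read 1200 against 1159 in experiment 1 and was below the floor in experiment 2.

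**Figure D3:**
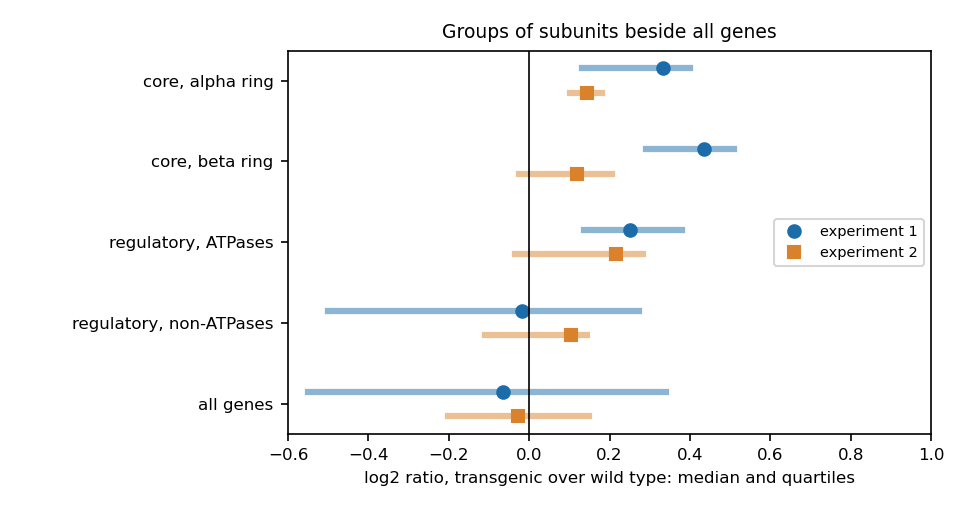
Median (symbol) and quartiles (bar) of the genes' log2 ratios, transgenic to wild type (x axis), for 4 groups of subunits and all genes (y axis), in experiment 1 (circles) and experiment 2 (squares). The alpha ring has medians of 0.33 and 0.14 and the beta ring of 0.44 and 0.12, whereas the non-ATPases have -0.02 and 0.10 and all genes -0.07 and -0.03.

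The assembly chaperones help build the regulatory particle and leave before it is complete. Psmd9, whose promoter carries the first motif, read 610.4 in the transgenic sample against 272.0 in experiment 1 (2.24-fold higher), and 488.8 against 569.6 in experiment 2. Psmd5 was lower in both, at 1394 against 1512 and 1954 against 2251, and Psmd10 (gankyrin), measured in experiment 2, read 268.0 against 306.4. In experiment 2 the 3 chaperones were all lower, with log2 ratios from -0.22 to -0.19, where 2938 of all 5377 genes were lower.

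The activators cap the core in place of the regulatory particle. Psme1, part of the interferon-inducible activator, read 3198 against 2311 and 3113 against 2971. Psme3, the nuclear activator, read 1014 against 278.4 on Mu11K A and 288.8 against 268.5 on Mu11K B. These 2 probe sets of experiment 1 had log2 ratios of 1.86 and 0.10. On U74A Psme3 read 499.6 against 499.0. Psme4, which encodes a large single-chain activator, read 351.4 against 784.4 in experiment 1, 2.23-fold lower, and 1202 against 1017 in experiment 2. The 3 genes had adjusted p-values of 0.915, 0.872 and 0.881 in limma.

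At the 2-fold mark, experiment 1 held 1 member higher, Psmd9, and 2 lower, Psmd1 and Psme4, of 33, where 5.25% of all genes were 2-fold higher and 11.7% lower. Experiment 2 held 0 of 37 in either direction, where 0.855% were higher and 0.446% lower. All 3 had a log2 ratio of -0.22 to 0.24 in experiment 2. Of the non-subunits, Psme3ip1 was higher in both, at 989.7 against 707.3 and 1673 against 1328, and Psmc3ip read 141.7 against 173.2 in experiment 2.

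The ratios of the experiments were weakly related, among members and among all genes. Over the 31 members tested, Pearson's r was 0.065 and Spearman's rho 0.062, a description across genes that share 2 pairs of samples, and without Psmd1 they were -0.018 and 0.0038. Over all 3237 genes they were 0.178 and 0.109, over the 12 core genes -0.159 and -0.126, and over the 12 regulatory genes 0.335 and 0.350. Probe sets of 1 gene within 1 sample give a measure of error, with a pooled SD of the log2 ratio of 0.54 over 11 members in experiment 1 and 0.31 over 5 members in experiment 2. Over all genes with several probe sets these SDs were 0.47 and 0.30.

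Among all genes, those brightly read had higher ratios in experiment 1. Among all 1096 genes with a mean scaled intensity above 1000 in experiment 1, the median log2 ratio was 0.18 and 64.1% were higher. The 11 of 12 core genes above that level had a median of 0.40 and the 10 of 14 regulatory genes 0.17. In experiment 2, the 1476 genes above 1000 had a median of -0.0030, the 11 core genes 0.14 and the 11 regulatory genes 0.12. The part of brightness in the core's difference was not tested beyond the loess fit, which takes the trend with level out of each pair of arrays.

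Relative to the median of all genes, the core stood 0.43 higher in experiment 1 and 0.16 in experiment 2, and the regulatory particle 0.17 and 0.13. After loess the core stood 0.23 and 0.12 higher, and the regulatory particle 0.01 and 0.11. Quantile normalization gave 0.23 and 0.12 for the core and 0.01 and 0.11 for the regulatory particle. Median scaling shifted the median of all genes to 0.27 in experiment 1, and relative to it the core stood 0.43 higher. In these 4 settings the core stayed above the median of all genes in both experiments, and the regulatory particle of experiment 1 did so by 0.01 under loess and quantile normalization.

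**Figure D4:**
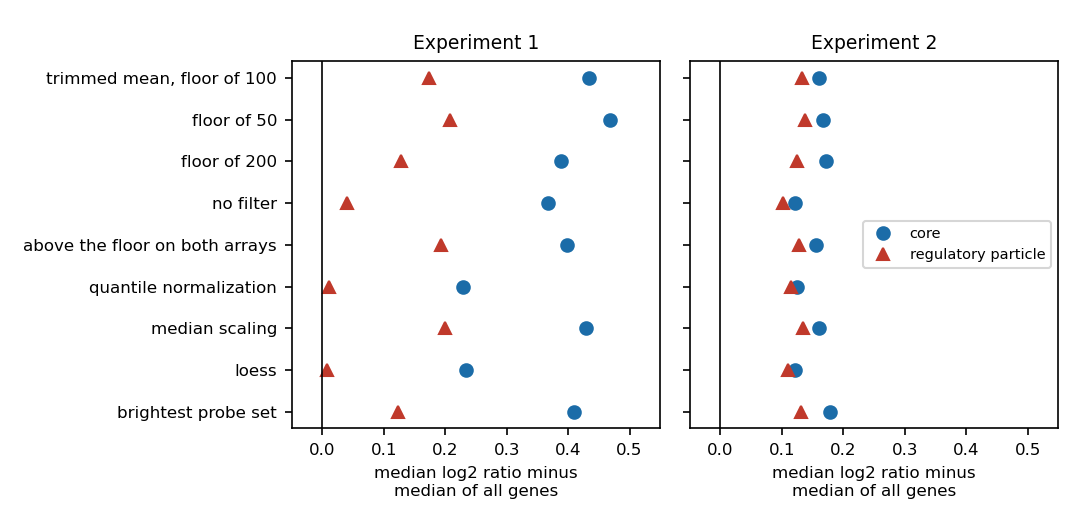
Median log2 ratio of core (circles) and regulatory particle (triangles) minus the median of all genes (x axis), by processing setting (y axis, 9 settings over all arrays), in experiments 1 and 2. In experiment 1 the core lies between 0.23 and 0.47 and the regulatory particle between 0.01 and 0.21; in experiment 2 both lie between 0.10 and 0.18.

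The inducible subunits, which replace Psmb5, Psmb6 and Psmb7 when the immunoproteasome forms, were higher in experiment 1 and mixed in experiment 2. Psmb8 averaged 7323 against 4957 over its probe sets of experiment 1 and read 9156 against 8315 in experiment 2, Psmb10 read 1162 against 749.9 and 2302 against 1899, and Psmb9 had log2 ratios of 0.98 and -0.07. None of the 3 passed in limma (0 called).

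Genes of the pathway outside the members were taken from 7 lists holding 66 symbols, among them the 3 inducible subunits. Of these symbols 31 were tested, and 0 passed in either direction. Over both experiments 6 were higher in each, 2 of them inducible subunits, and 11 lower in each, against 23.9% and 30.4% of all genes. Nfe2l1, which encodes the factor that drives proteasome genes when the proteasome is impaired, read 642.5 against 524.0 and 380.2 against 322.3 (mean log2 ratio 0.27 ± 0.34, limma SE; adjusted p = 0.914). Its relative Nfe2l2 read 104.6, close to the floor, against 266.7, and 648.5 against 667.8. The mean log2 ratio of Nfe2l2 was -0.70, and -0.23 at a floor of 200. The assembly factor genes Psmg1, Psmg3 and Psmg4 were higher in experiment 1 and lower in experiment 2, with 0 higher in both.

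Ubiquitin-conjugating enzyme genes did not share a direction, with 2 of 10 higher and 4 lower in both experiments. Ube2s, which extends ubiquitin chains in mitosis, read 5666 against 4701 and 6270 against 3583, a mean log2 ratio of 0.54 ± 0.35 (limma SE; adjusted p = 0.848). Ube2b read 968.7 against 1383 and 1099 against 1424, and Ube2d3 had log2 ratios of -1.17 and -0.01. Of shuttle factors and the p97 unfoldase with its cofactors, 4 of 5 tested were lower in both, against 30.4% of all genes, and 0 passed. They were the ubiquilins Ubqln1 (-0.37 and -0.065) and Ubqln2 (-0.75 and -0.33), Rad23b, and Vcp, which encodes p97. Some of these values lay near the floor. Ubqln2 read 101.4 against 127.6 in experiment 2, Vcp had 5 values at the floor over 8 probe sets, and Rad23b 1 over 4. Uba7, the activating enzyme for the ubiquitin-like protein ISG15, was at -0.11 and -0.12.

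Markers of the sort and of other cells were read in the same samples, with values under the floor counted as 100 in each sum. Double-positive markers lay above the floor for 10 of 10 genes in experiment 1 and 11 of 11 in experiment 2, in both genotypes, with summed intensities of 71254 in the transgenic and 78818 in the wild-type sample, and of 98729 and 103146. Single double-positive markers differed more than the sums in experiment 1, where Rag2 read 459.8 against 1871, Cd1d1 308.3 against 669.2 and Ptcra 952.9 against 312.3. In experiment 2 their log2 ratios were 0.078, -0.049 and 0.58. The erythroid list summed to 3500 against 1012 and 2334 against 753.7, with 3 of 6 markers above the floor in the transgenic and 4 of 6 in the wild-type sample of experiment 1, and 2 and 3 of 6 in experiment 2. The difference lay in the globins Hba-a1 (1862 against 131.0 and 1642 against 242.4) and Hbb-b2 (901.6 against 109.7, and 291.2 against a value below the floor). Slc4a1 had log2 ratios of 0.029 and -0.093, and Gata1 of -0.52 and -0.065. The natural killer list summed to 8704 against 1635 and 1662 against 1005, with Gzma the 1 marker above the floor, of 2 and of 5 measured. Sums for B cell markers were 14703 against 11279 and 11972 against 11708, with 3 of 6 and 5 of 7 above the floor in each genotype. Ighm made up most of each sum, at 13180 against 9859 and 10560 against 10340. Cd79b had log2 ratios of 0.58 and -0.23 and Ms4a1 of -0.14 and 1.01, opposite in sign. Myeloid markers summed to 3293 against 3730 and 1374 against 1223, with 5 and 4 of 8 above the floor in experiment 1 and 5 and 2 of 10 in experiment 2. Epithelium and stroma summed to 717.0 against 832.7 and 917.5 against 1011, with 1 and 2 of 7 and 2 and 3 of 8 above it. Alas2, Epb42, Cd22, Adgre1, Epcam, Krt8 and Col3a1 were below the floor on every array that measured them. The part of other cells in the proteasome values was not tested, and in these bulk samples fewer cells of a type and less RNA per cell cannot be told apart.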

How the data were processed

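RNA of the sorted samples was hybridised to 6 Affymetrix arrays. The authors deposited 1 linear intensity per probe set and array, computed with Affymetrix analysis software per the series text and with MAS5 per the submitters' processing notes for U74A. How they scaled the arrays is not stated there. Mu11K intensities include values below 0.

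AFFX controls and 21 Mu11K A probe sets with a missing value were left out. Arrays were scaled to a 2% trimmed mean of 500, floored at 100 and logged. Between 46.9% and 57.4% of an array's probe sets exceeded 100. Precision is limited by how few arrays there are. Probe sets above the floor in at least 1 genotype were averaged per gene and experiment.

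The log2 ratios of the 3237 genes measured in both experiments were fitted with limma (3.58.1, R 4.3.3), testing the mean ratio (both sides) and adjusting by Benjamini-Hochberg over all genes, with a threshold of 0.05. Ratios were paired by experiment, as the array types differ. The fit was checked on simulated data. p-values measure the spread between 2 pairs of pooled samples, and a variance prior of 12.1 degrees of freedom outweighs a gene's own spread. Within an experiment nothing was tested.

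All members could be named. Pathway genes were named if past the threshold or, up to 6 per direction, above the floor on all arrays with 1 sign, by the smaller absolute ratio. Psmg1, Psmg3, Psmg4, Psmb9, Rad23b, Vcp, Gzma, the markers at the floor and the other markers given by name were added for their lists. Members and lists were chosen with earlier results of these data known. Names came from the platform annotation, promoters from RefSeq (GRCm38.p6). Alternatives covered floors, filters, scalings, probe set choice, array type, pairing and each experiment alone.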

Additional observations from a re-analysis of the deposited data

How the results depend on the processing

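No member passed limma under any alternative fit (0 of 318 gene fits, adjusted p from 0.455 to 1). Psmd1 gave the lowest value, under quantile normalization. Leaving out an experiment leaves 1 ratio and no test. The core median (0.25) was 0.13 to 0.37 with 1 experiment left out, 0.44 under median scaling and 0.11 with Mu11K B as the sole array of experiment 1 (0.092 there, over 2 core genes). The regulatory median (0.11) was 0.11 to 0.11 with 1 experiment left out, 0.10 with a floor of 50, 0.071 without a filter, 0.13 above the floor on both arrays, 0.086 after quantile normalization, 0.32 under median scaling, 0.077 after loess, 0.086 with the brightest probe set, 0.14 on Mu11K A, 0.033 on Mu11K B and 0.086 by probe set. Both particles together (0.20) gave 0.12 to 0.28 with 1 experiment left out, 0.40 under median scaling and 0.077 on Mu11K B, which holds 2 core and 4 regulatory genes. With both experiments kept, gene means turned sign for Psma2 (-0.030 quantile, -0.042 loess), Psma6 (-0.014 quantile), Psmb1 (-0.067 Mu11K A), Psmd6 (-0.0029 quantile, -0.0061 loess), Psmd8 (-0.074 brightest probe set, -0.074 Mu11K B), Psmc3ip (0.052 median, 0.016 loess), Psmd14 (0.053 median), Psmd5 (0.10 median) and Uba7 (0.080 median). With both experiments kept, 321 of 333 gene values over members, Psmb8 and Psmb10 kept their direction and stayed short of the threshold. With 1 experiment left out, the value of 12 of the 31 members turned sign: Psma2, Psma5, Psmb1, Psmb3, Psmb4, Psmc3ip, Psmc5, Psmd4, Psmd6, Psmd9, Psmd14 and Psme4. Genes called higher (5) numbered 0 with a floor of 50, 0 without a filter, 2 above the floor on both arrays, 12 quantile, 21 median, 13 loess, 1 brightest, 3 on Mu11K A, 0 on Mu11K B and 0 without pairing (no replicate block). Genes called lower (0) numbered 1 with a floor of 200, 3 quantile, 5 median and 2 loess. The cause of these changes was not tested. With 2 pairs of samples the 95% interval of a core gene typically spans 1.66-fold to either side.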
